A study of Mus musculus with 30 samples.

Results

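Collagens are the main fibrous proteins of the extracellular matrix, and each collagen molecule is a triple helix of chains, with a separate gene for each kind of chain. The mouse genes named Col, a type number, the letter a and a chain number were taken from the deposited gene table, and pseudogenes and opposite-strand transcripts were left out. This gave 44 collagen chain genes of 46078 genes, 45143 of which have a symbol. Col4a3bp, which starts with the same letters but codes for a ceramide transfer protein, was not counted. A fragment was found in 20 of the 44 genes, and 15 reached 10 CPM in at least 1 phase (CPM, the fragments of a gene per 1000000 fragments of the library).

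The study profiled C2C12 cells, an established mouse myoblast line, while growing in medium with 20% serum and without induced differentiation. Trypsin-detached cells were stained for 15 min with a Hoechst DNA dye and separated in a cell sorter into a G1, an S and a G2/M fraction, and RNA was sequenced with 2 columns of counts per phase. The labels name no altered gene and no synchronising drug, so by the labels the groups differ in the sorting gate, and the titles of the S samples also carry a lot mark that the other titles lack. Phase and lot cannot be told apart. The series holds 30 samples, and 24 of them are ChIP samples that are not analysed here.

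The 6 columns held 16109055 to 18103769 fragments. The 2 columns of a phase differed by little more than counting alone would give, with a chi-square over degrees of freedom of 1.00 in G1 cells, 1.03 in S cells and 1.15 in G2/M. They were therefore summed to 1 library per phase, and the comparisons have no biological replicates and no p-values. Intervals are exact 95% intervals and cover counting error only, not the spread between cultures. Copies made by PCR are not independent molecules, so the intervals can be too narrow even for counting error. For the 15 measured collagen genes, the largest ratio between the columns of a phase was 1.14, for Col18a1 in G2/M.

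The fractions differed in cell cycle genes. Ccnb1, the mitotic cyclin B1, was at 74.3 CPM in G1 cells, 242 CPM in S cells and 390 CPM in G2/M, and Plk1, a mitotic kinase, was at 62.0, 96.7 and 205 CPM. Cdc6, which licenses replication origins, was at 140 CPM in G1 cells, 11.2 CPM in S cells and 24.2 CPM in G2/M, so the highest value of this G1/S gene was in the library sorted as G1. Ccne2 and Pcna were also 2-fold or more higher in G1 than in the other libraries, and Ccna2 was 2-fold or more lower there. Of 6 myoblast markers, 4 reached 10 CPM, and the summed level of the list was 543, 482 and 556 CPM. The 4 did not move together. Myf5 was at 66.0, 126 and 128 CPM, Des at 311, 213 and 285 CPM, Cdh15 at 95.7, 92.1 and 85.5 CPM and Chrna1 at 62.85, 44.3 and 48.9 CPM. The determination factor Myod1 was low, at 6.64, 6.08 and 5.73 CPM, and Pax7 had 0, 0 and 119 fragments. None of the 6 fibroblast markers reached 10 CPM. Their summed level was 2.46 CPM in G1 cells, 9.63 CPM in S cells and 7.17 CPM in G2/M, with Thy1, Dpt, Pi16 and Dpp4 at 0 in every library. Pdgfra had 0, 221 and 9 fragments in G1, S and G2/M, while Cd34 had 79, 124 and 251 and was highest in G2/M. Endothelial, leukocyte, adipocyte and epithelial markers also stayed under 10 CPM, with no summed level above 5.27 CPM (leukocyte markers in G1) and the epithelial ones at 0, as did 8 markers of differentiating muscle, whose summed level was 11.4, 1.93 and 11.2 CPM. Of the chondrocyte markers Sox9 alone was measured, with Acan, Matn1 and Comp at 0.

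Fibrillar collagens (types I, III and V here) form the banded fibrils that give connective tissue its strength. Type IV chains build the sheet-like network of basement membranes, which surrounds every muscle fibre, and type VI chains form beaded filaments that link that sheet to the fibrils around it. Types XII and XVI sit on the surface of fibrils, type VII anchors epithelia, and type XVIII is a basement membrane collagen that carries sugar chains. Collagen chains are hydroxylated and folded in the endoplasmic reticulum, exported in large carriers, trimmed outside the cell and cross-linked. In muscle these proteins are made largely by connective tissue cells, and myogenic cells contribute part of the matrix.

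Collagen chain genes took 0.691% of all fragments in G1 cells (95% interval 0.688 to 0.694%), 0.739% in S cells (0.737 to 0.742%) and 0.629% in G2/M (0.627 to 0.632%). The share was highest in S and lowest in G2/M. The summed fibroblast markers given above were highest in S too, through Pdgfra and not Cd34, and their part in the collagen share was not tested. In scaled CPM the summed level was 6982 in G1 cells, 7391 in S cells and 6229 in G2/M. This put G2/M 1.19-fold below S and 1.12-fold below G1. The log2 ratio of the sum was 0.08 in S against G1 and −0.25 in G2/M against S. Single genes with 4000 exon bases or more had medians of 0.11 and −0.03. A few genes carried most of the summed level. The 7 highest genes held 91.3% of collagen fragments in G1 cells, 89.2% in S cells and 90.8% in G2/M. Fibrillar chains made up 62.9% of collagen fragments in G1 cells, 58.8% in S cells and 62.3% in G2/M. The fibril-associated chains took 3.67%, 5.50% and 4.12%, and their summed level was 1.59-fold higher in S than in G1. Most of that sum was Col12a1, with 6997 of 8225 fragments in G1 and 13032 of 14575 in S.

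**Figure D1:**
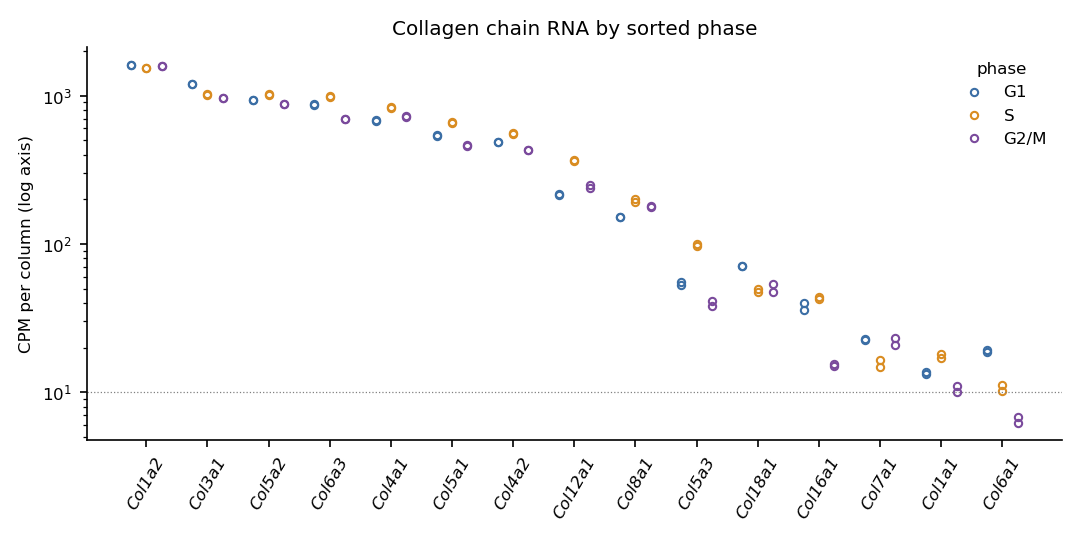
Level of the 15 collagen chain genes at 10 CPM in some phase, as CPM of each of the 2 columns per phase on a log axis (not scaled by TMM). The 2 circles of a phase nearly coincide, so they were summed to 1 library, and the genes span from over 1500 CPM for Col1a2 to under 10 CPM for Col6a1 in G2/M, where the dotted line marks 10 CPM.

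Col1a2 (ENSMUSG00000029661, chr6:4504814-4541543, GRCm38), the alpha 2 chain of type I collagen, had the highest level of all collagen genes. It had 25955 and 26076 fragments in the G1 columns, 27305 and 27680 in S and 27988 and 28546 in G2/M, or 1623, 1534 and 1559 CPM. It ranked 51st of 12578 genes with a fragment in G1 cells, 52nd in S cells and 48th in G2/M. The 3 libraries lay within 1.06-fold of each other, the smallest range of any measured collagen gene. Col1a1 (ENSMUSG00000001506, chr11:94936224-94953042), the alpha 1 chain that pairs with it, was far lower. Its columns held 222 and 217 fragments in G1 cells, 323 and 305 in S cells and 196 and 182 in G2/M, or 13.7, 17.5 and 10.4 CPM. Its G2/M level was 1.68-fold below S (log2 ratio −0.75, 95% interval −0.94 to −0.56).

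Col3a1 (ENSMUSG00000026043, chr1:45311538-45349706), the only chain of type III collagen, was second. It had 19308 and 19549 fragments in the G1 columns, 18208 and 18245 in S and 17037 and 17396 in G2/M, or 1212, 1017 and 949 CPM. Its level was highest in G1 and lowest in G2/M, and the log2 ratio of G2/M to G1 was −0.35 (−0.37 to −0.33). Among the fibrillar genes it shared a G1 maximum with Col1a2 alone.

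The type V chains, which sit inside type I fibrils and limit their width, followed. Col5a2 was at 941, 1013 and 864 CPM in G1, S and G2/M, and Col5a1 at 544, 660 and 456 CPM. Both were highest in S and lowest in G2/M, and the log2 ratio of G2/M to S was −0.23 (−0.25 to −0.21) for Col5a2 and −0.53 (−0.56 to −0.51) for Col5a1. Col5a3 (ENSMUSG00000004098, chr9:20770050-20815067), a chain known from a minor form of type V, differed more between phases. Its columns held 895 and 857 fragments in G1 cells, 1772 and 1751 in S cells and 733 and 693 in G2/M, or 54.6, 98.3 and 39.3 CPM. Both S columns stood above all others. The level was 1.80-fold higher in S than in G1 (log2 ratio 0.85, 0.76 to 0.93) and 2.50-fold lower in G2/M than in S (−1.32, −1.41 to −1.23).

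Of the remaining fibrillar genes Col11a2, a cartilage collagen chain, had 0 and 0 fragments in the G1 columns, 53 and 55 in S and 22 and 18 in G2/M. With the G1 library set at the floor of 3 fragments, S was 32.2-fold and G2/M 11.8-fold higher than G1 (log2 ratios 5.01 and 3.56). The lower ends of the counting intervals were looser, at log2 ratios of 4.69 and 3.19. The peak of Col11a2 was only 3.01 CPM. At a mean of 1 to 10 CPM most genes differed at least 2-fold between libraries, 66.8% of them in S against G1, 64.1% in G2/M against S and 72.3% in G2/M against G1, so such a difference is the rule at this level. Col27a1 had 1 fragment in S, and Col2a1, Col11a1 and Col24a1 had none.

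Start regions were read from RefSeq (GRCm38.p6), where 12 of the 15 measured genes matched, with 13 start windows. Col5a1 and Col5a3 are shown because these chains of 1 collagen type differed in how far their levels varied between phases, and Col3a1 and Col6a3 because they were among the highest genes and hold none of the GC-rich motif marked here. Each line gives the 100 bases before the start, 5′ to 3′ on the gene's strand, at chr2:27886325-27886424 (plus strand) for Col5a1, chr9:20815068-20815167 (minus) for Col5a3, chr1:45311438-45311537 (plus) for Col3a1 and chr1:90843972-90844071 (minus) for Col6a3. Capitals mark GGGCGG or its reverse complement CCGCCC, the core of a GC box.
Col5a1: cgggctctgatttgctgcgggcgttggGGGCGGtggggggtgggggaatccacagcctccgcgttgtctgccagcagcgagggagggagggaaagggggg
Col5a3: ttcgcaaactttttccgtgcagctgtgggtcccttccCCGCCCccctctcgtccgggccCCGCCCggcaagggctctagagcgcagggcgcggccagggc
Col3a1: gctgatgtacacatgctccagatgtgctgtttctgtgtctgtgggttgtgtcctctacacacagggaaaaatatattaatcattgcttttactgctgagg
Col6a3: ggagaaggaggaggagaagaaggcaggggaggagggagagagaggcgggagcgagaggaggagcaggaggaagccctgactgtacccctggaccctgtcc
In the 250 bases before the start, GGGCGG or CCGCCC was present in 8 of the 13 windows, against 32.7% of 32851 RefSeq start windows searched the same way. CCAAT or ATTGG, the CCAAT box in either direction, was present in 7 of 13 windows against 33.8%. TATAAA or TTTATA was found in Col3a1 alone, against 12.4%, and CANNTG, the E-box letters that myogenic factors and many others can bind, in 5 of 13 against 66.2%. Both strands were searched for each motif, and the letters of the motifs do not make a binding site by themselves. The windows of Col4a1 and Col4a2 reach into each other's gene, Col18a1 has 2 windows, and each window is counted separately.

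The basement membrane genes Col4a1 (ENSMUSG00000031502, chr8:11198423-11312826) and Col4a2 (ENSMUSG00000031503, chr8:11312805-11449287) code for the chains of the common type IV trimer. Col4a1 was at 687 CPM in G1 cells, 829 CPM in S cells and 716 CPM in G2/M, and Col4a2 at 490, 553 and 427 CPM. Both were highest in S, with log2 ratios of S to G1 of 0.27 (0.25 to 0.30) and 0.17 (0.14 to 0.20). They parted in G2/M, where Col4a1 was slightly above G1 (0.06, 0.03 to 0.09) and Col4a2 below it (−0.20, −0.23 to −0.17). Col4a5, a chain of other basement membranes, had 207 fragments in G1 cells, 98 in S cells and 295 in G2/M, or 6.46, 2.74 and 8.13 CPM. Col4a3, Col4a4 and Col4a6 had no fragment.

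Among the beaded filament genes the order of levels was steep. Col6a3 (ENSMUSG00000048126, chr1:90765923-90843971), which codes for the large alpha 3 chain of type VI, was at 880 CPM in G1 cells, 984 CPM in S cells and 688 CPM in G2/M, and its G2/M level was 1.43-fold below S. Col6a1 (ENSMUSG00000001119, chr10:76708792-76726168) had 300 and 314 fragments in the G1 columns, 180 and 203 in S and 111 and 124 in G2/M, or 19.2, 10.7 and 6.48 CPM. Each phase stood apart from the next, with G1 the highest and G2/M the lowest. G2/M was 2.96-fold below G1 (log2 ratio −1.56, −1.79 to −1.34), and in that comparison the gene passed the 10 CPM minimum through G1 alone. Col6a2, whose chain pairs with those of Col6a1 and Col6a3, had only 9 fragments in G1 cells, 41 in S cells and 2 in G2/M. Col6a4, Col6a5 and Col6a6 had none.

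Col12a1 (ENSMUSG00000032332, chr9:79598991-79718831), whose product coats fibrils, was the gene above 100 CPM that varied most. It had 3500 and 3497 fragments in the G1 columns, 6413 and 6619 in S and 4420 and 4330 in G2/M, or 218, 364 and 241 CPM. Both S columns were above the others, and S was 1.67-fold above G1 (log2 ratio 0.74, 0.69 to 0.78). Col16a1 (ENSMUSG00000040690, chr4:130047840-130099283), another fibril-associated collagen, differed in G2/M instead. Its columns held 641 and 587 fragments in G1 cells, 757 and 786 in S cells and 269 and 280 in G2/M, or 38.3, 43.1 and 15.1 CPM. The G2/M columns were below all others, 2.84-fold under S (log2 ratio −1.51, −1.65 to −1.37) and 2.53-fold under G1 (−1.34, −1.49 to −1.19). The other 7 fibril-associated genes, among them the cartilage chains Col9a1, Col9a2 and Col9a3, had no fragment.

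Col8a1, a short chain that forms hexagonal networks, was at 154 CPM in G1 cells, 196 CPM in S cells and 177 CPM in G2/M. The multiplexin Col18a1, whose C-terminal fragment is endostatin, was at 72.0 CPM in G1 cells, 48.4 CPM in S cells and 50.2 CPM in G2/M. It was 1.49-fold lower in S than in G1, and the interval of G2/M against S held 0 (log2 ratio 0.05, −0.04 to 0.15). Col7a1, the anchoring fibril chain of skin, had a minimum in S at 15.6 CPM, against 22.9 CPM in G1 and 21.7 CPM in G2/M, and its G1 and G2/M levels did not differ beyond counting error (−0.08, −0.22 to 0.07). Col17a1, a transmembrane collagen of epithelial hemidesmosomes, had 89 and 84 fragments in the G1 columns, 1 and 0 in S and none in G2/M. The log2 ratio of S to G1 was −6.01 (−12.9 to −5.10), at a G1 level of only 5.40 CPM. With the G2/M library at the floor of 3 fragments, G2/M was 65.2-fold lower than G1 (log2 ratio −6.03). The upper end of that counting interval was looser, at −5.71.

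For the 24 genes without a fragment, the floor of 3 fragments per library equals 0.0936 CPM in G1 cells, 0.0837 CPM in S cells and 0.0827 CPM in G2/M. The upper ends of their counting intervals were 0.115, 0.103 and 0.102 CPM. These genes include Col10a1 of hypertrophic cartilage, Col14a1, Col15a1, Col22a1 (known from the junction of muscle and tendon), Col13a1 and Col25a1 (transmembrane collagens with roles at the neuromuscular junction), Col8a2, Col19a1, Col20a1, Col23a1, Col26a1 and Col28a1. Fewer cells that express a gene and less RNA of it per cell cannot be told apart in sorted bulk samples.

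A gene was called when the levels of a pair of phases stood 2-fold or further apart and 1 of them reached 10 CPM. The 3 comparisons share libraries, so they are not independent of each other. Between S and G1, 0 of the 15 measured collagen genes was 2-fold higher and 0 was 2-fold lower, against 8.63% and 8.59% of the 8773 genes tested. Of the 15, 9 have a mean of 100 CPM or more, and at that level 1.93% of genes were 2-fold higher and 0.876% lower, against 22.3% in either direction under 100 CPM, where the other 6 lie. At 1.5-fold Col12a1 and Col5a3 were higher in S, against 18.5% of the genes tested, and Col6a1 was lower, against 18.3%. The ratio was above 0 on the log2 scale for 10 of 15 genes, against 49.6% of genes tested, and the median was 0.17 against −0.01 over all. Measured collagen genes all have at least 4380 exon bases, and genes with 4000 exon bases or more were above 0 in 57.9% of cases with a median of 0.11.

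Between G2/M and S, Col16a1 and Col5a3 were 2-fold lower, 2 of 15 genes against 6.60% of the 8752 genes tested, and 0 was 2-fold higher, against 7.12%. Both called genes have a mean under 100 CPM, where 2 of 6 collagen genes compare with 8.76% of genes. At 1.5-fold 5 of 15 were lower (Col12a1, Col16a1, Col1a1, Col5a3 and Col6a1), against 15.4% of genes tested. Col6a1 passed the 10 CPM minimum there through S alone. The log2 ratio was below 0 in 12 of 15 genes against 49.5%, and the exceptions were Col1a2 (0.02), Col18a1 (0.05) and Col7a1 (0.48). The median over the collagen genes was −0.37, against 0.01 over all genes tested and −0.03 over those with 4000 exon bases or more.

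Between G2/M and G1, Col6a1 and Col16a1 were 2-fold lower, 2 of 15 against 9.81% of the 8850 genes tested. No collagen gene was 2-fold higher, so 2 of 15 passed 2-fold in either direction, against 19.8%. These also have a mean under 100 CPM, where 2 of 6 collagen genes were lower against 12.6% of genes. Again 12 of 15 were below 0, against 50.2% of the genes tested, and the median was −0.26 against −0.003 over all. Col12a1 (0.14), Col8a1 (0.20) and Col4a1 (0.06) were the 3 genes above G1 in G2/M.

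**Figure D2:**
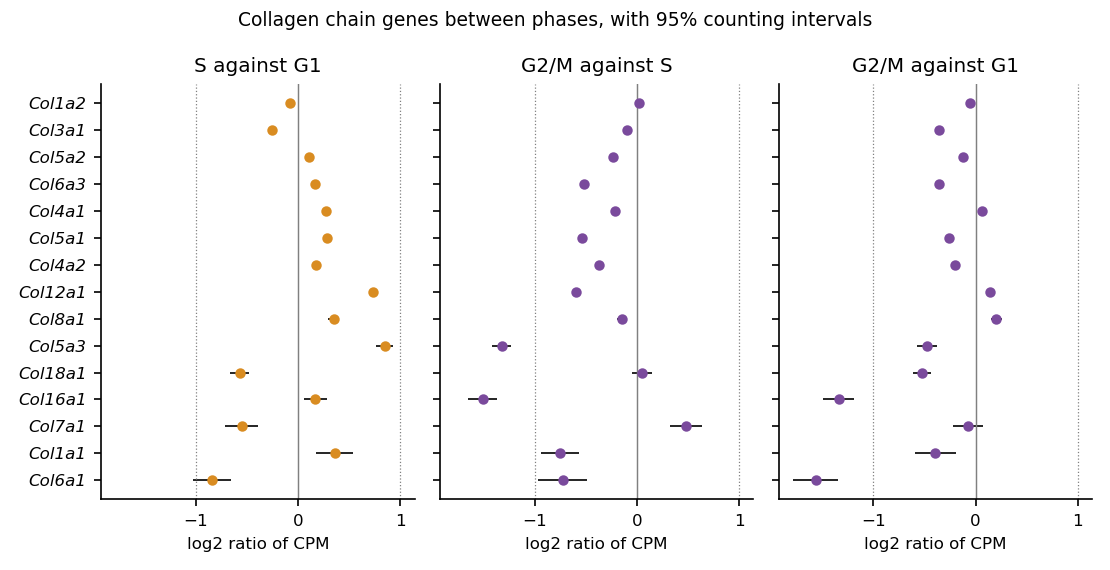
Log2 ratio of scaled CPM between phases for the 15 measured collagen genes, ordered by mean level from top to bottom. Bars are exact 95% counting intervals, often narrower than the point, and dotted lines mark 2-fold. No gene passes 2-fold in S against G1, and Col16a1 lies beyond it to the left in both comparisons with G2/M.

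S held the highest level of 10 of the 15 genes, against 30.3% of the 9071 genes at 10 CPM in some phase. Among genes with 4000 exon bases or more the share with an S maximum was 36.1%. At a mean of 100 CPM or more and that length, 7 of 9 collagen genes had their maximum in S, against 41.1%. G1 held the maximum of the other 5, Col1a2, Col3a1, Col18a1, Col7a1 and Col6a1, against 36.4%. G2/M held the maximum of 0 of 15, against 33.3% of all genes at that level, and the minimum of 9 of 15, against 33.1%. The highest phase was 2-fold or more above the lowest for 3 of 15 collagen genes, against 31.5% of genes. By level this was 0 of 9 collagen genes with a mean of 100 CPM or more, against 5.69%, and 3 of 6 under that level, against 40.1%.

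**Figure D3:**
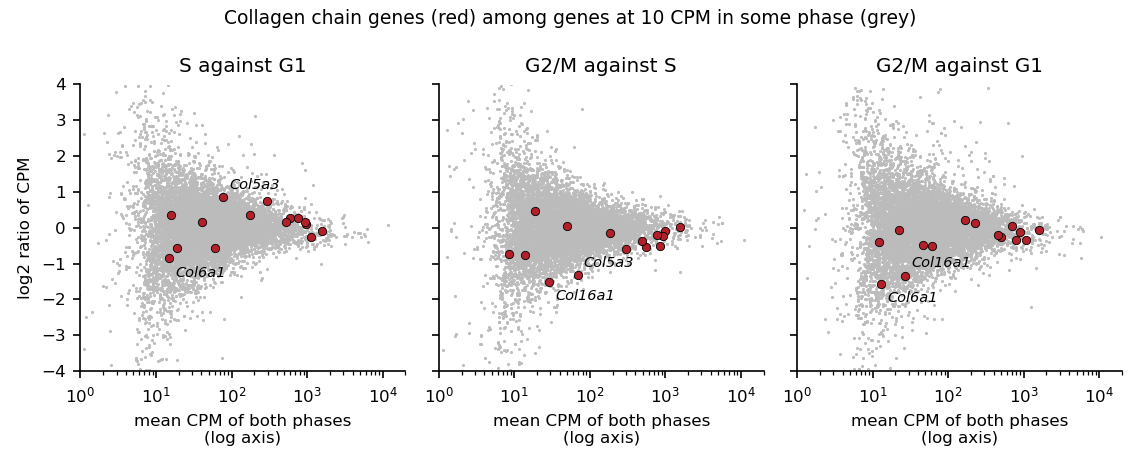
Log2 ratio against mean CPM of both phases (log axis) for all genes at 10 CPM in some phase (grey) and the collagen chain genes (red). Points beyond a log2 ratio of 4 either way or a mean under 1 CPM are not drawn. The collagen genes at the right, above 100 CPM, lie within 0.8 of 0 on the log2 scale in every panel, and the labelled genes are those past that value.

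Chains of 1 trimer can be compared per length, as fragments per kb of exon within a library. The level of Col1a2 per kb was 64.1-fold that of Col1a1 in G1 cells (58.3 to 70.6), 47.3-fold in S cells (43.8 to 51.3) and 80.9-fold in G2/M (73.1 to 89.7). The common type I molecule holds more alpha 1 than alpha 2 chains, so the RNA order is opposite to the protein's composition. No exon base of Col1a1 is shared with another gene of the table. What sets its low value was not tested. Col3a1 per kb was close to Col1a2, at 0.923-fold in G1 cells, 0.820-fold in S cells and 0.753-fold in G2/M.

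The chains of the common type IV trimer were closer to each other in level than those of type I. Col4a1 per kb was 1.36-fold Col4a2 in G1 cells (1.33 to 1.39), 1.45-fold in S cells (1.43 to 1.48) and 1.63-fold in G2/M (1.60 to 1.66). The ratio was lowest in G1 and highest in G2/M. Col5a2 per kb was 1.53-fold Col5a1 in G1 cells, 1.36-fold in S cells and 1.68-fold in G2/M, and Col5a1 was 7.99-fold, 5.39-fold and 9.30-fold Col5a3. In S the type V chains were thus closest to each other.

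Type VI was the most uneven. Col6a3 per kb was 16.8-fold Col6a1 in G1 cells (15.5 to 18.3), 33.7-fold in S cells (30.5 to 37.4) and 38.9-fold in G2/M (34.2 to 44.4). Col6a1 in turn was 130-fold Col6a2 in G1 (67.9 to 285) and 17.8-fold in S (12.8 to 25.1). In G2/M Col6a2 had 2 fragments, which the ratio of 149 sets at the floor of 3, with an interval of 61.1 to 1855. These chains assemble together in the type VI molecule, and their RNA levels spanned more than those of any other collagen type, counting chains with a fragment. No exon base of Col6a1 or Col6a2 is shared with another gene of the table. For the other measured collagen genes the largest shared part was 2.50% of exon bases, in Col5a1, where the counts do not separate the strands.

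**Figure D4:**
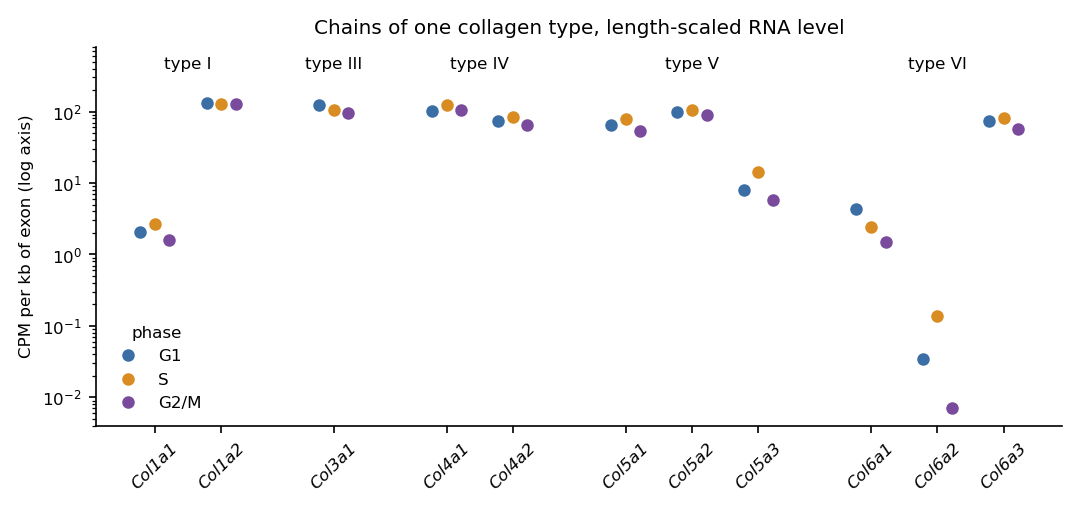
Level per kb of exon (scaled CPM per kb, log axis) for chains of types I, III, IV, V and VI in G1, S and G2/M. Col1a1 lies below Col1a2 and Col6a1 and Col6a2 lie below Col6a3 in every phase, while Col4a1 and Col4a2 lie side by side.

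Several collagen genes are genomic neighbours. Col4a1 and Col4a2 stand head to head on chromosome 8 with starts that overlap by 22 bases, and both were among the highest genes. Col4a5 and Col4a6 are arranged in the same way on chromosome X, 1308 bases apart, and over all libraries Col4a5 had 600 fragments and Col4a6 had 0. Col4a3 and Col4a4, 71 bases apart on chromosome 1, both had 0. Col3a1 and Col5a2 lie tail to tail on chromosome 1, 24614 bases apart, with 109743 and 97798 fragments in all. Col6a1 and Col6a2 lie in the same direction on chromosome 10, 85161 bases apart, with 1232 and 52 fragments. A pair of neighbours was thus both high, both without a fragment, or unequal.

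The enzymes that modify collagen chains were mostly measured, 11 of 14 genes of hydroxylation and glycosylation between S and G1. None of these was 2-fold higher or lower in S than in G1, against 8.63% of all genes tested higher and 8.59% lower. In G2/M against S, 1 of 10 was 2-fold higher and 1 was lower, against 7.12% and 6.60%. In G2/M against G1, 2 of 11 were 2-fold lower, against 9.81%, and none was higher. P4hb, the beta subunit of prolyl 4-hydroxylase and a protein disulfide isomerase, was at 951, 707 and 834 CPM in G1, S and G2/M. Its catalytic partner P4ha1 was at 113, 66.2 and 135 CPM, so that G2/M stood 2.04-fold above S. P3h1, which hydroxylates prolines at another position, was at 31.2, 29.9 and 11.5 CPM, 2.60-fold lower in G2/M than in S and 2.72-fold lower than in G1. P4ha3, another catalytic subunit, was at 11.7, 6.50 and 1.38 CPM, 8.51-fold lower in G2/M than in G1. In that comparison P4ha3 passed the 10 CPM minimum through G1 alone. The lysyl hydroxylase Plod2 was highest in S at 156 CPM, against 117 CPM in G1 and 143 CPM in G2/M.

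Folding and export genes split. Of 16 tested between S and G1, 3 were 2-fold higher in S and 1 was 2-fold lower, against the 8.63% and 8.59% of all genes given above, and the median log2 ratio was −0.15. Serpinh1 (HSP47), the collagen-specific chaperone, was at 924 CPM in G1 cells, 515 CPM in S cells and 633 CPM in G2/M, 1.79-fold lower in S than in G1. Hspa5 (BiP), the general chaperone of the endoplasmic reticulum, was at 1456, 1008 and 1009 CPM. Fkbp14, a peptidyl-prolyl isomerase, was 2.13-fold lower in S, at 28.0 CPM in G1 and 13.1 CPM in S. The genes higher in S were Mia3 (TANGO1), which loads collagen into export carriers, at 47.3, 100.04 and 55.2 CPM, Klhl12, the ubiquitin ligase adaptor that enlarges those carriers, at 33.6, 76.9 and 45.1 CPM, and the low gene Fkbp7, at 2.18, 12.7 and 5.90 CPM. The Fkbp7 level in G2/M was also 2.16-fold below that in S. In that comparison 1 of 16 genes was 2-fold lower, against 6.60% of all genes tested, and 0 was higher, against 7.12%. Fkbp7 passed the 10 CPM minimum through S alone, against G1 and against G2/M alike.

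Of the 5 measured genes of propeptide processing, which trim the ends of secreted chains, Adamts14 was 2-fold lower in G2/M, at 9.59 CPM against 23.0 CPM in G1 and 22.8 CPM in S. Adamts14 passed the 10 CPM minimum in these comparisons through G1 or S alone. Over all genes tested, 9.81% were 2-fold lower in G2/M than in G1 and 6.60% than in S. The C-proteinase gene Bmp1 was at 151, 153 and 90.9 CPM, and its enhancer gene Pcolce at 174, 157 and 124 CPM. Neither reached 2-fold. Pcolce2, a related enhancer gene, went the other way from S to G2/M, at 122 CPM in G1 cells, 64.6 CPM in S cells and 119 CPM in G2/M. The median log2 ratio of the 5 genes was −0.75 in G2/M against S and −0.74 in G2/M against G1, against 0.01 and −0.003 over all genes tested. All 5 measured genes of cross-linking were above 0 in S against G1, against 49.6% of all genes tested. Their median log2 ratio was 0.33, against −0.01 over all genes. None reached 2-fold, against 8.63% of all genes higher and 8.59% lower. Lox, the lysyl oxidase that starts cross-links, was at 703, 824 and 869 CPM, and Loxl1 was at 13.6 CPM in G1 and 31.5 CPM in G2/M, 2.32-fold apart. In G2/M against G1, 1 of 5 cross-linking genes was thus 2-fold higher, against 888 of the 8850 genes tested. In that comparison 0 of the 5 was 2-fold lower, against 9.81% of all genes tested.

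**Figure D5:**
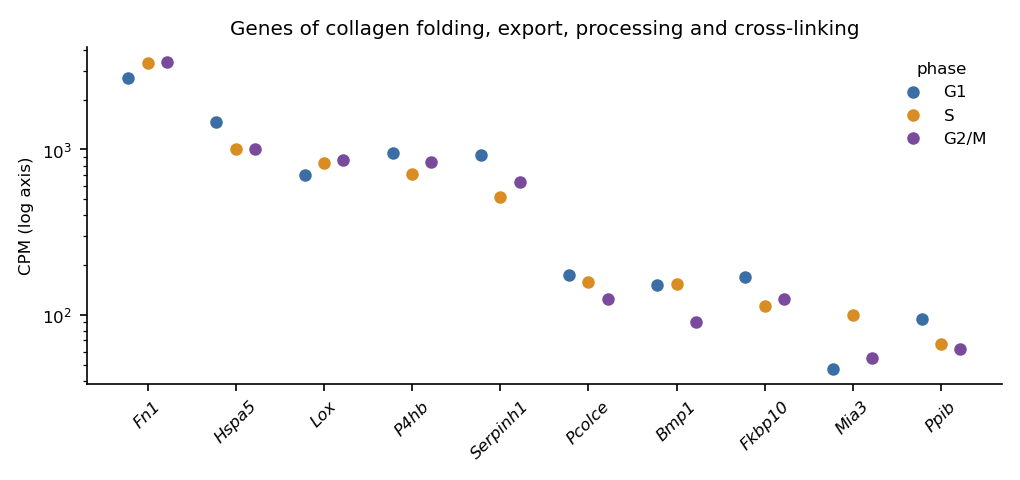
Scaled CPM (log axis) in G1, S and G2/M for 10 genes of collagen folding, export, processing, cross-linking and fibril assembly. Serpinh1, Hspa5 and Fkbp10 are highest in G1, Mia3 stands out in S, and Bmp1 is lowest in G2/M.

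No measured gene among fibril partners, collagen receptors or collagen degradation was 2-fold different in any comparison. Over all genes the share past 2-fold was 17.2% in S against G1, 13.7% in G2/M against S and 19.8% in G2/M against G1, and at a mean of 100 CPM or more it was 2.80%, 0.877% and 4.12%. Fn1, the fibronectin gene whose matrix collagen fibrils assemble on, was at 2718, 3317 and 3365 CPM, and Sparc, a collagen-binding matricellular protein, at 1679, 1261 and 1742 CPM. The small proteoglycan gene Bgn was measured, at 56.33, 45.04 and 39.45 CPM. Of other small proteoglycan genes, Fmod had 39, 100 and 0 fragments in G1, S and G2/M. Lum and Dcn had 0 fragments, apart from 114 of Dcn in G2/M. Itgb1, the beta 1 integrin subunit, was at 2837, 3093 and 2676 CPM, while its collagen-binding partners Itga1, Itga2 and Itga11 had no fragment and Itga10 had 9, all in G1. Ddr2, a receptor tyrosine kinase for fibrillar collagen, was at 385, 414 and 345 CPM. Mmp14, a membrane-bound collagenase, was at 175, 219 and 184 CPM, and the inhibitor Timp3 at 757, 1083 and 840 CPM. The other measured genes of collagen degradation were lower in S than in G1. Timp2 was at 686, 574 and 578 CPM, Timp1 at 103, 78.5 and 120 CPM and Mmp2 at 59.7, 44.8 and 34.35 CPM. Of the 5 measured degradation genes 2 were above 0 in S against G1, against 49.6% of all genes tested, with a median log2 ratio of −0.26. Mmp8, Mmp13, Mmp9 and Ctsk had no fragment.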

How the data were processed

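RNA values are fragment counts per gene in the deposited table: per the file headers, the authors ran featureCounts 1.5.0-p3 on read pairs, grouping exons by gene in Ensembl's GRCm38 annotation. That command names no strand, multiply mapping or overlap option. HISAT2 2.1.0 and SAMtools 1.6 are named per the submitters' processing notes. Symbols were matched for 98.0% of identifiers. Columns were matched by the names in the sample descriptions, and 0 columns stayed unmapped. The titles call the 2 columns of a phase replicates, and nothing states separate cultures. They were summed (32395232 fragments in G1, 35822319 in S, 35907974 in G2/M) and scaled by TMM in edgeR 4.0.16, with factors of 0.990, 1.000 and 1.010. CPM is per 1000000 scaled fragments. Ratios carry exact binomial intervals and levels exact Poisson ones. In ratios a floor of 3 fragments stands for any lower count, while the intervals use the counts as they are. Scripts were tested on simulated data. Every collagen gene at 10 CPM is named with its values, of lower ones the highest 5, and of each pathway list the genes at 2-fold with some of the most abundant. Pathway genes with few or 0 fragments were named after their values were seen. Members, lists and length or level classes were chosen with earlier results of these data known. Alternatives were library size scaling, DESeq2 1.42.0 size factors, other minimums, 1.5-fold and single columns.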

Additional observations from a re-analysis of the deposited data

How the results depend on the processing

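No paired analysis was possible because the 2 columns of a phase, which the titles call replicates, differed by little more than counting noise, were summed to 1 library and give no test. Scaling by library size or by DESeq2 size factors and leaving out either column changed none of the 2-fold counts. Other minimums admit or drop genes and so change them. With a minimum of 1 CPM, or none beyond 1 fragment, 2 collagen genes were 2-fold higher and 2 lower in S against G1, and in G2/M against S 1 was higher and 4 were lower, with a median log2 ratio of −0.45. In G2/M against G1 both gave 1 higher gene, and no minimum gave 4 lower. With a minimum of 50 CPM 1 gene was lower in G2/M against S, with a median of −0.23, and 0 in G2/M against G1. At 1.5-fold 2 genes were higher and 1 lower in S against G1, and 5 were lower in G2/M against S. Without Col1a2 the collagen share was 0.530% in G1 cells, 0.586% in S cells and 0.472% in G2/M. Per kb of exon the share of all collagen chain genes was 0.201, 0.246 and 0.212%, so that the lowest share was then in G1. Of 45 log2 ratios of single genes, 5 left their 95% counting interval under library size scaling, 1 without each column and 0 under DESeq2 size factors. Without the second column 2 ratios whose interval holds 0 changed sign, Col18a1 in G2/M against S from 0.05 to −0.02 and Col7a1 in G2/M against G1 from −0.08 to 0.0003, and none of the other 43 did under these alternatives. The 20 collagen genes with a fragment include 5 below 10 CPM, where depth limits what can be compared.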
